A study of Mus musculus with 27 samples.

Results

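The miR-10, miR-99, miR-100 and miR-125 family was followed through 3 subcellular fractions of 3 kinds of mouse cells. Its members were taken by name: every table entry called mir-10a, mir-10b, mir-99a, mir-99b, mir-100, mir-125a or mir-125b, with any copy or arm suffix. This gave 14 of the 1013 small RNA entries, and 14 of the 483 miRNA entries. All 14 were mature arms and none a hairpin: 8 were 5p arms, with miR-125b-5p listed at each of its 2 genes, and 6 were 3p arms. Names are given without the prefix mmu- after the first use, as for mmu-miR-99a-5p.

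The stem cells (mESC) are the E14 mouse line grown with LIF. The neural progenitors (mNPC) are a line that the depositing laboratory established and supplied each day with EGF and FGF, 10 ng/ml of each. The neurons (mCtx) came from primary cortical cultures on day 5. From each, chromatin, soluble nucleoplasm and cytoplasm were sequenced in triplicate, giving 9 groups of 3 and 27 libraries. RNA shorter than 200 nt went through an rRNA removal step and small RNA library preparation (size range 120 to 160 bp, single-end 100 bp sequencing), per the labels. Nothing in the labels says that the 3 replicates of a group came from separate cultures, so a p value reflects spread among these libraries only, and that spread could be technical.

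A miRNA is cut from a hairpin whose 5p and 3p arms can each be loaded into an Argonaute protein, and the seed near its 5′ end largely decides which mRNAs it pairs with. The miR-10 genes lie in the Hox clusters, while miR-99 or miR-100 and miR-125 genes lie in clusters with a let-7 gene between them, and miR-125b and let-7 are known to rise as stem cells become neurons.

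These mature sequences are shown because the members differ by so little that the seed and single bases tell them apart. They are taken from RefSeq GRCm38.p6 and run 5′ to 3′, with the seed (bases 2 to 8) in capitals, and the positions of all 14 entries were the same in RefSeq and in the deposited table.
miR-10a-5p: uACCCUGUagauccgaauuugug
miR-10b-5p: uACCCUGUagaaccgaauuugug
miR-99a-5p: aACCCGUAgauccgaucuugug
miR-100-5p: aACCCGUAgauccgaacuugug
miR-99b-5p: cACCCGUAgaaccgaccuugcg
miR-125a-5p: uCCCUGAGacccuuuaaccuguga
miR-125b-5p: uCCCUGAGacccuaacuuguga
miR-125b-1-3p: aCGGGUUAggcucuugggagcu
miR-125b-2-3p: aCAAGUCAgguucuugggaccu

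miR-10a and miR-10b share the seed ACCCUGU and differ by U12A, counted from 1 at the 5′ end of miR-10a. miR-99a, miR-99b and miR-100 share ACCCGUA, and miR-100 differs from miR-99a by A16U alone. miR-125a and miR-125b share CCCUGAG. The 5p arm of miR-125b is the same sequence at both of its genes, so a read of it cannot be placed, whereas the 3p arms have different seeds and report on each gene by itself.

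All places refer to the plus strand of GRCm38. miR-99b-5p (chr17:17830194-17830215), let-7e and miR-125a-5p (chr17:17830817-17830840) lie within 647 bases in Spaca6, the last of them overlapping an annotated exon. miR-99a-5p (chr16:77598940-77598961), let-7c and miR-125b-2 (3p arm chr16:77646318-77646339) lie over 47400 bases in introns of Mir99ahg. miR-100-5p (chr9:41531437-41531458), let-7a and miR-125b-1 (3p arm chr9:41581980-41582001) lie over 50565 bases in introns of the transcript 3110039I08Rik, and miR-100-5p also overlaps an exon of Gm48742 on the opposite strand. The cluster also lies in introns of Gm49317, and both miR-125b-1 arms overlap an exon of Gm28119 on the same strand. miR-10b-5p (chr2:74726074-74726096) lies in introns of Hoxd3 and Hoxd4, and miR-10a-5p (chr11:96317186-96317208) overlapped no other annotated gene.

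Values are RPM (reads scaled to a common library total) as the authors deposited them. The listed values of a library covered between 73.9% and 97.4% of the total that RPM refers to. Each library had a lowest value above 0, from 5.16 to 59.1 RPM, and no value stood between 0 and it. No source used here says how a 0 arose, so a 0 was read as a value somewhere under that floor and not as absence. A fold against a group at 0 then depends on the pseudocount and can be too large. For several calls that rest on zeros in part of a group, the value is also given with everything under the highest floor raised to it. Chromatin libraries held less miRNA: the miRNA values of mESC added up to 183544 to 228221 RPM in chromatin against 676466 to 740462 RPM in cytoplasm, those of mNPC to 466212 to 631859 against 901956 to 916139 RPM, and those of mCtx to 589985 to 631680 against 853923 to 868603 RPM. The 6 listed stem cell markers (mir-290a to mir-295) summed to 19861 to 93870 RPM in mESC libraries and were at 0 in the 18 others. The marker mir-124, listed for neurons and for neural progenitors alike, was at 0 in all mNPC libraries. The 5 listed neuronal markers summed to 16629 to 49338 RPM in mCtx against 354 to 1413 RPM in mNPC. Of the other progenitor markers, mir-9 did not separate the neural cells, with group means of 50901 to 105827 RPM in mNPC and 58002 to 92154 RPM in mCtx. Group means of mir-92b were 564 to 1098 RPM in mNPC, 103 to 231 RPM in mCtx and 167 to 205 RPM in mESC. In bulk libraries, fewer cells of a type and less RNA per cell cannot be told apart.

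**Figure D1:**
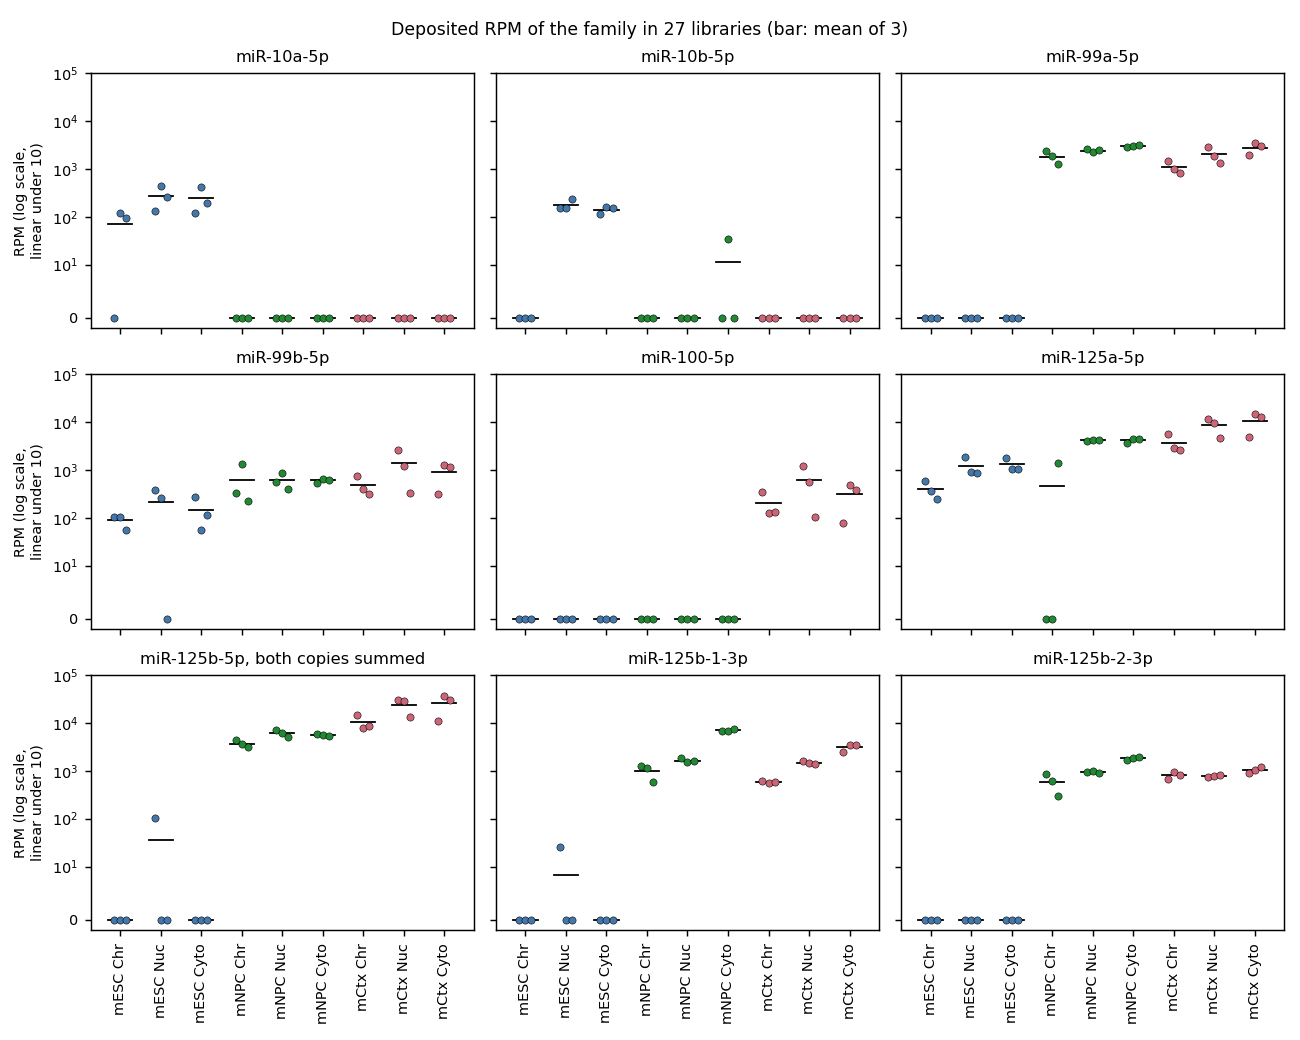
RPM of the 5p arms and of both miR-125b 3p arms in the 27 libraries (points) with the mean of each group of 3 (bars), on an axis that is logarithmic above 10 RPM. miR-10a-5p and miR-10b-5p have values in mESC, miR-99a-5p and miR-125b in mNPC and mCtx, and miR-100-5p in mCtx alone.

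The family as a whole took a larger share of the miRNA values in neural cells. In mESC it made up 0.266% ± 0.0769 (SD, n = 3) of chromatin miRNA, 0.277% ± 0.0825 of nucleoplasmic and 0.265% ± 0.0642 of cytoplasmic miRNA. In mNPC the shares were 1.51% ± 0.0848, 1.78% ± 0.141 and 2.49% ± 0.118. In mCtx they were 2.86% ± 1.09, 4.31% ± 1.65 and 5.29% ± 2.44. The lowest mNPC library (1.46%) was thus above the highest mESC library (0.366%), while mNPC and mCtx overlapped in cytoplasm, where mCtx began at 2.54% and mNPC ended at 2.59%. The mCtx groups had SDs of about 1 to 2 points, far wider than those of mNPC. As a sum over chosen members, this share was given no test.

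**Figure D2:**
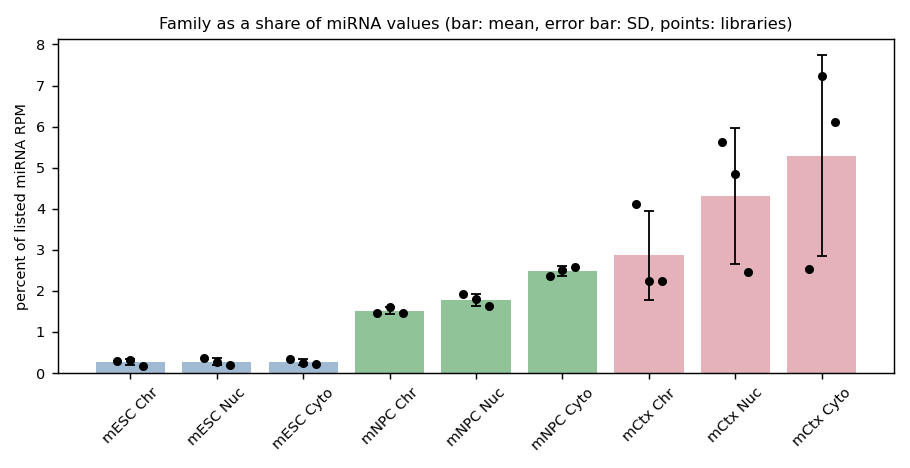
The family's summed RPM as a percent of all listed miRNA RPM: bars are means of 3 libraries, error bars SD, points libraries. The 3 fractions of mESC stand at 0.265% to 0.277%, and the mean rises from chromatin to cytoplasm in mNPC and mCtx.

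Which members made up that share differed between the cell types. In mESC, miR-125a supplied 70.0% ± 12.7 of the family's values in chromatin, 60.9% ± 8.43 in nucleoplasm and 69.6% ± 7.72 in cytoplasm. In mCtx, miR-125b took that place, with all its arms at 68.5% ± 2.97, 68.1% ± 3.72 and 67.2% ± 0.980 in the same order, and miR-125a at 20.8% ± 2.43, 21.9% ± 0.949 and 23.3% ± 0.722. In mNPC cytoplasm miR-125b stood at 64.2% ± 1.95, miR-125a at 18.5% ± 1.67 and miR-99a at 14.4% ± 0.153. The arms are all 21 to 24 bases long, so these RPM values were compared without scaling by length.

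Of the 14 entries, 12 passed the filter of at least 1 RPM in at least 3 libraries. miR-100-3p and miR-125a-3p did not: each had a value in mCtx cytoplasm replicates 2 and 3 only, 11.2 and 10.1 RPM for the former and 41.9 and 21.0 RPM for the latter. Each entry was compared between groups with limma on log2(RPM + 1), fitted to all 851 entries that passed and adjusted by Benjamini-Hochberg, with calls at 0.05. The 2 miR-125b-5p entries are the same sequence and count as 2 of the 12 in all counts and medians. Several members passed only through the cell type in which they are high. The counts that follow therefore describe them beside the percent of all entries called, and no p value is given for a member against a cell type that lists it at 0 in every library.

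Against mESC, mCtx had 7 of the 12 entries higher in chromatin (22.8% of all tested entries were called higher), 8 in nucleoplasm (20.9%) and 7 in cytoplasm (21%). Lower were 1 in chromatin (29.3% of all), 2 in nucleoplasm (31.3%) and 2 in cytoplasm (24.4%). mNPC against mESC had 5 higher in chromatin (15.9%), 7 in nucleoplasm (12.8%) and 6 in cytoplasm (14.1%), and 2 lower in each of chromatin (29%), nucleoplasm (35.8%) and cytoplasm (27.5%). Between the neural cells fewer differed: mCtx had 3 higher than mNPC in chromatin (16% of all), 2 in nucleoplasm (23.5%) and 1 in cytoplasm (21.5%), with 1 lower, in cytoplasm (10.8%), and 0 lower in chromatin or nucleoplasm (11.9% and 10.3%). Those higher were miR-100-5p in each fraction, miR-125a-5p and miR-99a-3p in chromatin and miR-99b-3p in nucleoplasm, and the lower one was miR-125b-2-3p. For miR-99b-3p no direction can be told. Its mCtx nucleoplasm values, 15.5 to 17.7 RPM, lie under the mNPC nucleoplasm floors of 30.2 to 34.0 RPM, where it is listed at 0. The median log2 difference of the 12 for mCtx against mESC was 7.07 in chromatin, 7.31 in nucleoplasm and 6.86 in cytoplasm, beside 0, -0.45 and 0 over all tested entries. For mNPC against mESC it was 2.37, 4.91 and 4.98 beside 0, -1.20 and 0. These medians include members listed at 0 in mESC, whose fitted difference depends on the pseudocount of 1 RPM. In chromatin and in cytoplasm, every entry called higher than mESC was listed at 0 in all mESC libraries of that fraction. The entries called lower in mCtx than in mESC were at 0 in all mCtx libraries. Those calls follow from the zeros, so their counts restate which members are listed at 0 and are no separate result.

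The Hox cluster members were found in stem cells. miR-10a-5p had 0, 117 and 93.2 RPM in the 3 mESC chromatin libraries, 135, 437 and 261 RPM in nucleoplasm and 121, 420 and 192 RPM in cytoplasm. It was listed at 0 in all 18 mNPC and mCtx libraries. miR-10b-5p had 149, 152 and 237 RPM in mESC nucleoplasm and 116, 157 and 152 RPM in cytoplasm, was listed at 0 in all 3 chromatin libraries, and elsewhere had a single value, 33.9 RPM in mNPC cytoplasm replicate 2. Every mESC nucleoplasm and cytoplasm library thus stood above the neural ones for both. Markers of other cells were high in the same libraries. The 3 microglial and blood markers summed to 407 to 574 RPM in mESC chromatin, with mir-155 at 0, to 2805 to 3302 RPM in nucleoplasm and to 3309 to 4016 RPM in cytoplasm, against 44.5 RPM at most in any neural library, and mir-150 among them was at 0 in all 18 of those. The 5 endothelial and mesenchymal markers summed to 949 to 1536 RPM, 4930 to 7305 RPM and 5607 to 7629 RPM in the 3 mESC fractions, with mir-145a, mir-199a and mir-199b at 0 in chromatin. Their part in the miR-10 values was not tested. Among the 3 other miRNAs of the Hox clusters that were looked up, mir-196a alone is listed, with 62.8, 31.2 and 30.5 RPM in mESC nucleoplasm, 44.1 RPM in 1 mESC cytoplasm library and 0 elsewhere.

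miR-99a-5p, from the chromosome 16 cluster, was listed at 0 in all 9 mESC libraries and in none of the neural ones. In mNPC it had 2316, 1872 and 1240 RPM in chromatin, 2572, 2237 and 2443 RPM in nucleoplasm and 2935, 3047 and 3193 RPM in cytoplasm. In mCtx it had 1464, 993 and 806 RPM in chromatin, 2822, 1891 and 1319 RPM in nucleoplasm and 1998, 3414 and 2952 RPM in cytoplasm. Ordered by mean, the groups ran mNPC cytoplasm (3058 ± 129), mCtx cytoplasm (2788 ± 722), mNPC nucleoplasm (2418 ± 169), mCtx nucleoplasm (2011 ± 759), mNPC chromatin (1809 ± 540) and mCtx chromatin (1088 ± 339, SD, n = 3 each). Every neighbouring pair in this order overlapped.

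The 3p arm of miR-99a was far lower. It had 123, 0 and 0 RPM in mNPC chromatin, 84.6, 102 and 42.2 RPM in nucleoplasm and 193, 198 and 203 RPM in cytoplasm. In mCtx it had 59.0, 146 and 118 RPM, then 57.3, 61.2 and 61.9 RPM, and 76.4, 41.9 and 48.7 RPM. It was listed at 0 in all 9 mESC libraries. Many of these values lie near the floors of their libraries, and mCtx was above mNPC by the test in chromatin (adjusted p = 0.00477), where 2 of 3 mNPC libraries are at 0, but not with only the 6 libraries compared (0.152). With values raised to the highest floor the difference of 4.35 became 0.41 (adjusted p = 0.371). In mNPC, chromatin was called lower than nucleoplasm (-3.86, adjusted p = 0.0108), which became -0.08 with the raised floor. The 3p arm of miR-99b was lower still, at 15.5 to 60.9 RPM in the 11 libraries that list it, and at 0 in all 9 chromatin libraries.

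miR-125b-5p, from both its genes, was the family's most abundant arm in mCtx. Its 2 entries had nearly the same value, with a ratio of 1.00 to 1.09 over the 19 libraries that list it, and were summed. The rule by which the authors counted such reads is not given in the sources used here. If each read was counted at both genes, the sums are too high. The sum in mNPC was 4333, 3711 and 3089 RPM in chromatin, 7113, 6094 and 5193 RPM in nucleoplasm and 5807, 5625 and 5260 RPM in cytoplasm. In mCtx it was 14721, 8038 and 8734 RPM, then 29947, 28336 and 13572 RPM, and 11249, 37389 and 30663 RPM. In these sums, all 9 mCtx libraries lay above all 9 mNPC libraries, while the lowest single entry in mCtx, 3989 RPM, lay below the highest mNPC sum. In mESC it was at 0 in 8 of 9 libraries and at 105 RPM in nucleoplasm replicate 1, the library with the most entries above 0 (615).

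The test, which uses 1 spread per entry for all 27 libraries, did not call the miR-125b-5p difference between mCtx and mNPC. In cytoplasm the chromosome 9 entry was 2.09 ± 0.95 (SE) higher on the log2 scale, with an adjusted p of 0.103. Without mESC nucleoplasm replicate 1, the sole mESC library with a value, the same difference had an adjusted p of 8.01e-05, and with only the 6 libraries compared it had 0.0138. With each library centred on its median the difference of 2.09 became -0.65 (adjusted p = 0.726). That median includes zeros, so centring depends on how many entries a library lists. The mNPC cytoplasm libraries listed 288 to 343 entries above 0 and those of mCtx 383 to 506, so this setting cannot decide the direction.

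miR-100-5p was listed in mCtx alone. It had 345, 123 and 131 RPM in mCtx chromatin, 1203, 554 and 101 RPM in nucleoplasm and 77.3, 494 and 384 RPM in cytoplasm, and 0 in all 18 other libraries. In mNPC its near twin miR-99a-5p reached 3193 RPM, and miR-125b-1-3p, from the same chromosome 9 cluster as miR-100, stood at 585 to 7555 RPM. let-7a, summed over all its genes, had 7756 to 14176 RPM in mNPC. Among endothelial and mesenchymal markers, mir-143 averaged 2433 to 3527 RPM in the mCtx groups, and the 5 that are listed summed to 2192 to 4158 RPM there against 112 to 345 RPM in mNPC, with mir-145a at 0 in all 9 mCtx libraries and mir-199a and mir-199b at 0 in mCtx chromatin. They also summed to 949 to 7629 RPM in mESC, where miR-100-5p was at 0. The 3 glial markers summed to 155 to 552 RPM in mCtx and 0 to 288 RPM in mNPC, and the 3 microglial and blood markers to 0 to 44.5 RPM and 0 to 29.2 RPM. In mESC the glial markers were at 0 and the microglial and blood markers stood at the levels given for miR-10. Their part in the miR-100 result was not tested.

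The chromosome 17 pair, miR-99b and miR-125a, was present in all 3 cell types. miR-125a-5p had 581, 366 and 252 RPM in mESC chromatin, 1828, 912 and 862 RPM in nucleoplasm and 1783, 1065 and 1052 RPM in cytoplasm. In mNPC it had 4111, 4288 and 4282 RPM in nucleoplasm and 3581, 4487 and 4472 RPM in cytoplasm. In mCtx it had 5701, 2842 and 2644 RPM in chromatin, 11642, 9435 and 4749 RPM in nucleoplasm and 4984, 14423 and 12583 RPM in cytoplasm. In nucleoplasm and in cytoplasm, mESC, mNPC and mCtx did not overlap and stood in that order, lowest first. The cytoplasmic gap between mCtx and mESC was 2.94 ± 1.64 (SE) on the log2 scale and was not called (adjusted p = 0.167), but was with only the 6 libraries compared (0.00365) and without mNPC chromatin replicate 3 (9.71e-06).

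mNPC chromatin broke this pattern: miR-125a-5p was listed at 0 in replicates 1 and 2 and at 1388 RPM in replicate 3. The floors of these libraries, 32.5, 47.0 and 59.1 RPM, lie far below the nucleoplasmic 4111 RPM. The neighbour let-7e, 429 bases upstream, had 924 to 1110 RPM in all 3 of them, and miR-99b-5p had 322, 1340 and 219 RPM. Of the 483 miRNA entries, 4 in this group had a 0 beside a value over 10 times the highest floor in another library, and miR-125a-5p was the family's only such entry in any group. The entry was called lower in mNPC chromatin than in cytoplasm (-8.54 ± 1.64 SE, adjusted p = 0.000248) and than in nucleoplasm (adjusted p = 0.000336), which rests on those 2 zeros. With values raised to the highest floor the differences were -4.60 (0.000126) and -4.63 (0.000147). With only the 6 libraries compared, neither passed (0.0565 and 0.0678). In chromatin, mNPC was also called lower than mESC (-5.08, adjusted p = 0.0147), which became -1.14 (0.303) with the raised floor.

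miR-99b-5p was lower than miR-125a-5p in every library but mNPC chromatin replicates 1 and 2. It ran from 54.8 to 105 RPM in mESC chromatin, 0 to 386 RPM in nucleoplasm and 55.2 to 267 RPM in cytoplasm. In mNPC it had 219 to 1340 RPM, 389 to 877 RPM and 542 to 650 RPM, and in mCtx 306 to 730 RPM, 331 to 2563 RPM and 320 to 1242 RPM. mESC and the neural cells did not overlap in chromatin or in cytoplasm. The call in nucleoplasm (mCtx against mESC, 4.45 ± 1.46 SE, adjusted p = 0.0148) rested on a single 0 in mESC nucleoplasm replicate 3: without it the difference was 1.68, with an adjusted p of 0.112. With values raised to the highest floor it was 2.48 (0.0197). Without mCtx nucleoplasm replicate 1 it was 3.78 (0.0655). For mNPC against mESC the call (3.63 ± 1.46, adjusted p = 0.0461) was lost without that mESC library too (0.87, 0.478), with values raised to the highest floor (1.66, 0.136), and without any of 20 of the 27 libraries in all.

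let-7 miRNAs, of which let-7a, let-7c and let-7e have a copy between these genes, were higher in the neural cells. The values are summed over all genes of each, so for a miRNA with further genes they are not those of the cluster copy alone. let-7a, let-7c and let-7e were each called higher in mNPC and in mCtx than in mESC in all 3 fractions (3 of 3), and none of the 3 differed between mCtx and mNPC by the test. The 6 others (let-7b, let-7d, let-7f, let-7g, let-7i and mir-98) were all called higher too. Of all 713 features in the fit of summed miRNAs, 15.7% were called higher for mNPC in chromatin, 10.9% in nucleoplasm and 11.2% in cytoplasm, and 21.5%, 17.1% and 17.3% for mCtx. let-7c, the neighbour of miR-99a, averaged 330 RPM in mESC cytoplasm, 11371 RPM in mNPC cytoplasm and 31393 RPM in mCtx cytoplasm. Its mNPC cytoplasm libraries (10818 to 12263 RPM) lay below those of mCtx (24924 to 41450 RPM) without overlap, while let-7a and let-7e overlapped there. The let-7c difference was not called by limma (1.43 ± 1.18 SE, adjusted p = 0.517). Its SE pools all 27 libraries, with an mESC chromatin library at 0 among them.

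Over the 27 libraries, the profiles most like miR-99a among 54 other miRNAs with a value in each library were let-7i (Pearson r = 0.989 on log2(RPM + 1)), let-7g (0.976), mir-30d (0.941), mir-107 (0.928) and mir-26a (0.840). For miR-125b they were let-7g (0.969), let-7i (0.962), mir-30d (0.939), mir-107 (0.934) and mir-340 (0.874). These are descriptions over libraries that share cell type, fraction and depth. Within the 18 neural libraries r was lower for all 10, from 0.109 to 0.691 for miR-99a and from -0.385 to 0.591 for miR-125b.

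Between fractions, 6 of the 12 entries were lower in mNPC chromatin than in mNPC cytoplasm, and no entry of the family was called higher in chromatin in any cell type. Of these 6, miR-125a-5p and miR-99a-3p had 2 of 3 chromatin libraries at 0, and miR-99b-3p had all 3 at 0. The cytoplasmic values of miR-99b-3p, 0, 50.8 and 60.9 RPM, lay near the mNPC chromatin floors of 32.5 to 59.1 RPM. In mCtx the share of the 12 called lower in chromatin was close to that of all entries. In mESC, miR-99a-5p, miR-99a-3p, miR-100-5p and all miR-125b entries were at 0 in both chromatin and cytoplasm. They could not be called there, and these zeros limit the mESC count and fix its median. The same holds for calls of miR-10a-5p in mNPC and mCtx and of miR-100-5p in mNPC. For chromatin against cytoplasm, 2 of the 12 entries were lower in mESC (29.5% of all tested entries), 6 in mNPC (19.5%) and 3 in mCtx (23.9%), and 0 were higher (24.9%, 19.3% and 20.2% of all). The median log2 difference of the 12 was 0 in mESC, -1.26 in mNPC and -0.998 in mCtx, beside 0 over all entries in each. For chromatin against nucleoplasm, 2 were lower in mESC (30.9%), 3 in mNPC (10.9%) and 2 in mCtx (17.2%), and 0 were higher (19.9%, 16.9% and 14.9%). Of the 3 in mNPC, miR-125a-5p and miR-99a-3p rest on chromatin zeros. In mCtx, miR-99b-3p was among the calls against nucleoplasm and against cytoplasm. It was at 0 in mCtx chromatin, with floors of 19.4 to 25.1 RPM. It had 15.5 to 17.7 RPM in nucleoplasm, so no direction can be told, and 18.5 to 26.1 RPM in cytoplasm. For nucleoplasm against cytoplasm, 1 entry was lower, miR-125b-2-3p in mNPC (6.11%), and 0 in mESC or mCtx (5.17% and 11.8%), while 0 were higher (9.4% of all in mNPC, 14% in mESC and 13.5% in mCtx). The difference of miR-125b-1-3p in mNPC was larger than that of miR-125b-2-3p and did not pass. At an unadjusted p under 0.05, 4 entries differed between nucleoplasm and cytoplasm in mNPC, 1 in mESC and 0 in mCtx. Over the 3 cell types the calls for chromatin against cytoplasm went from 11 to 6 when each library was rescaled to its miRNA values, and to 21 with each library centred on its median. The centred count depends on how many entries each library lists, because the median includes zeros.

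**Figure D3:**
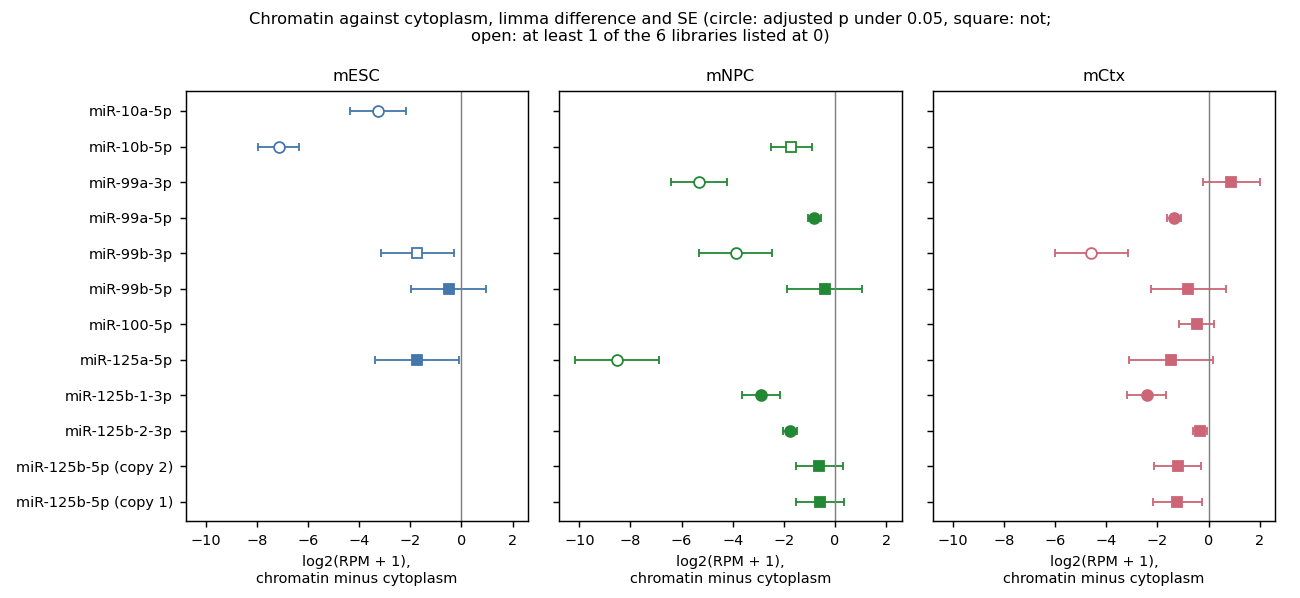
Difference of log2(RPM + 1) between chromatin and cytoplasm with its SE for each entry that passed the filter, by cell type. Circles passed the adjusted threshold of 0.05, squares did not, and open symbols mark comparisons with a library listed at 0. Entries at 0 in both groups are left out. The filled circles are miR-99a-5p, miR-125b-1-3p and, in mNPC, miR-125b-2-3p.

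miR-99a-5p was lower in chromatin than in cytoplasm in both neural cell types. The difference was -1.37 ± 0.27 (SE) on the log2 scale in mCtx (adjusted p = 0.000318) and -0.80 ± 0.27 in mNPC (adjusted p = 0.0245), and the groups did not overlap in either. The SE pools all 27 libraries, and the mESC libraries, all at 0 for this entry, add no spread to it. The mNPC difference became -0.06 when libraries were rescaled to their miRNA values, and lost its call without chromatin replicate 3 (-0.55, adjusted p = 0.157) or cytoplasm replicate 2 (0.0574) or 3 (0.0669). In mCtx, chromatin was also lower than nucleoplasm (-0.86 ± 0.27, adjusted p = 0.0194), a call lost without chromatin replicate 2 (0.0592) or 3 (0.115) or nucleoplasm replicate 1 (0.152). On the miRNA scale it was -0.31 (0.541), centred on the library median -1.52 (0.641), and with only the 6 libraries compared it did not pass (0.0873). In mESC, miR-10a-5p was lower in chromatin than in cytoplasm (-3.27 ± 1.09, adjusted p = 0.0146), which rests on the 0 of chromatin replicate 1 (without it -1.03, 0.0516) and was also lost without cytoplasm replicate 2 (0.0648), with only the 6 libraries compared (0.202) and on the miRNA scale (-2.25, 0.234). With values raised to the highest floor it was -1.30 and passed (0.00425).

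The 3p arms of miR-125b had a value in every neural library and differed between fractions. miR-125b-1-3p had 1293, 1152 and 585 RPM in mNPC chromatin, 1824, 1537 and 1575 RPM in nucleoplasm and 6871, 6806 and 7555 RPM in cytoplasm. In mCtx it had 602, 556 and 585 RPM, then 1603, 1482 and 1379 RPM, and 2463, 3550 and 3494 RPM. In both cell types the 3 fractions stood apart without overlap, in the order chromatin, nucleoplasm, cytoplasm. Chromatin was lower than cytoplasm by the test in mNPC (-2.89 ± 0.75 SE, adjusted p = 0.0041) and in mCtx (-2.43 ± 0.75, adjusted p = 0.0116), and on the miRNA scale the differences were -2.14 (0.0527) and -1.95 (0.0586) and did not pass. Between nucleoplasm and cytoplasm in mNPC the difference was -2.11 ± 0.75 and did not pass (adjusted p = 0.066). At nearly the same size it passed in the 6 libraries compared alone (1.02e-05), with values raised to the highest floor (1.34e-07), with log2(RPM + 10) (9.01e-05), and without any 1 of the mESC nucleoplasm libraries (3.4e-07 without replicate 1, 0.0389 and 0.0395 without replicates 2 and 3).

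miR-125b-2-3p had 857, 602 and 295 RPM in mNPC chromatin, 968, 993 and 889 RPM in nucleoplasm and 1662, 1861 and 1974 RPM in cytoplasm. In mCtx it was flatter, at 684, 926 and 831 RPM, 739, 799 and 832 RPM, and 886, 1025 and 1177 RPM. In mNPC it was lower in chromatin than in cytoplasm (-1.77 ± 0.27 SE, adjusted p = 1.45e-05) and in nucleoplasm than in cytoplasm (-0.95 ± 0.27, adjusted p = 0.0168). It was also lower in chromatin than in nucleoplasm (-0.83 ± 0.27, adjusted p = 0.0232), but not on the miRNA scale (-0.10) nor without chromatin replicate 3 (-0.40, 0.186) or nucleoplasm replicate 1 (0.0611) or 2 (0.0707). With only the 6 libraries compared it did not pass (0.153). The SE pools all 27 libraries, and the mESC libraries, all at 0 for this entry, add no spread to it. The call between nucleoplasm and cytoplasm was lost without nucleoplasm replicate 3 (0.0614) or cytoplasm replicate 2 (0.0562) or 3 (0.0619). In cytoplasm mCtx was lower than mNPC (-0.84 ± 0.27, adjusted p = 0.0182), without overlap, a call lost without mNPC replicate 2 (0.0520) or 3 (0.0650) or mCtx replicate 1 (0.0598).

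Whether the gap between chromatin and cytoplasm itself differed between cell types was tested with an interaction term. For mCtx against mNPC, 3 of the 12 entries had a higher term (6.11% of all) and 0 a lower one (11.2%), and miR-125b-2-3p was the one of them with a value above 0 in all 12 libraries concerned (1.43 ± 0.38 SE, adjusted p = 0.0109). For mNPC against mESC, 1 was higher (18.9%) and 4 lower (11.9%), and for mCtx against mESC 1 was higher (22.3%) and 1 lower (20.1%). Of these, miR-125a-5p for mNPC against mESC was the only entry with a value in each of the 4 groups. The others had at least 1 group at 0 throughout: miR-125b-1-3p, miR-125b-2-3p, miR-99a-3p and miR-99a-5p were at 0 in mESC chromatin and cytoplasm, so that their term is the fraction difference of the neural cells again, and miR-10b-5p was at 0 in mESC, mNPC and mCtx chromatin. For nucleoplasm against cytoplasm, 1 entry was lower, miR-125b-1-3p for mNPC against mESC (7.29%), where mESC is nearly all 0. No entry was higher there (4% of all). For mCtx against mESC 0 were higher (6.35%) and 0 lower (13.2%), with 1 at an unadjusted p under 0.05, and for mCtx against mNPC 0 were higher (4.7%) and 0 lower (4.82%), with 0 at an unadjusted p under 0.05.

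The 3p arms of miR-125b outweighed its 5p arm in mNPC cytoplasm. They made up 59.5%, 60.6% and 64.4% of all miR-125b values there, against 28.2%, 29.3% and 32.2% in mNPC nucleoplasm and 33.2%, 32.1% and 22.2% in chromatin. In mCtx chromatin they made up 8.04%, 15.6% and 14.0%, in its nucleoplasm 7.26%, 7.45% and 14.0%, and in its cytoplasm 22.9%, 10.9% and 13.2%. The mNPC cytoplasm libraries stood apart from the 15 other neural libraries. In them, miR-125b-1-3p alone was 1.18, 1.21 and 1.44 times the whole of miR-125b-5p. With the 5p arm counted once instead of at both genes, the mNPC cytoplasmic share was 76.2% ± 1.96.

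**Figure D4:**
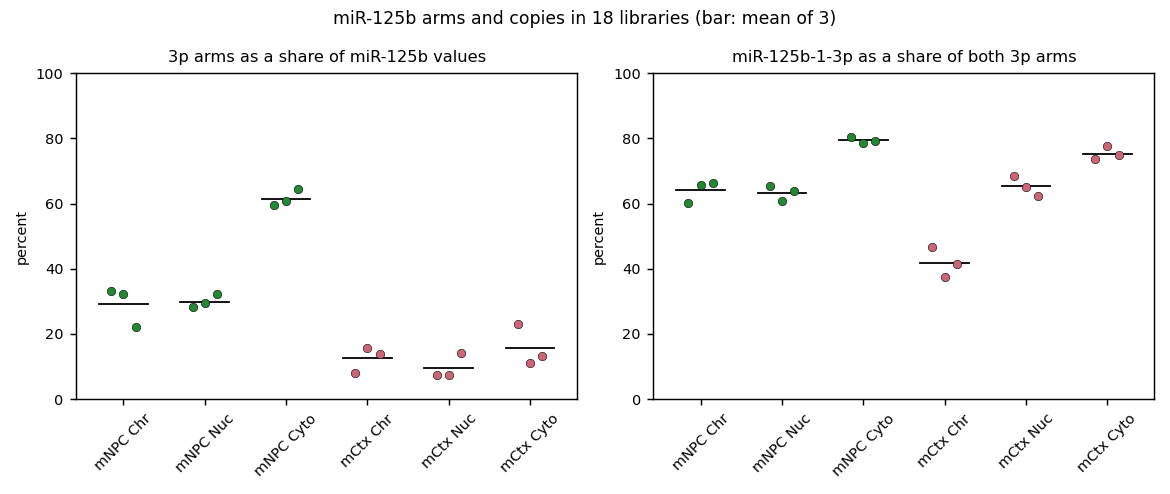
Left, the 3p arms as a percent of all miR-125b values; right, miR-125b-1-3p as a percent of both 3p arms, in the 18 mNPC and mCtx libraries (points) with group means (bars). mNPC cytoplasm lies at 59.5% to 64.4% on the left, and cytoplasm is the highest fraction of each cell type on the right.

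Arm shares were tested in 3 ways, 1 after another. The test over all 27 libraries took 28 miRNAs with a value in each, of which only miR-99b belongs to the family. Its 3p share differed by -5.57 points between chromatin and cytoplasm (exact permutation test within cell types, two-sided, adjusted p = 0.0175, lower in 3 of 3 cell types, 57.1% of the 28 called). miR-99b-3p is listed at 0 in all 9 chromatin libraries, and with values raised to the highest floor the difference turned to 5.10 points (adjusted p = 0.315). With the replicate block the call was also lost (0.0547). It passed in 0 of the 5 other contrasts, in which 10.7% (chromatin against nucleoplasm), 42.9% (nucleoplasm against cytoplasm), 32.1% (mCtx against mESC, and mNPC against mESC) and 25% (mCtx against mNPC) of the 28 were called. The call was lost without any 1 of the 9 chromatin libraries (adjusted p = 0.0525 to 0.0789).

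A second test, on the 18 neural libraries and chosen after the first had left out miR-125b, covered 45 miRNAs and 3 members. The 3p share of miR-125b differed by -27.6 points between mCtx and mNPC (exact permutation test, adjusted p = 0.001875, lower in 3 of 3 fractions, 24.4% of the 45 called). It differed by -17.8 points between chromatin and cytoplasm (adjusted p = 0.075, unadjusted 0.03, 0 of 3 members and 15.6% of the 45 called) and by -18.9 points between nucleoplasm and cytoplasm (adjusted p = 0.0844, unadjusted 0.015, 0 of 3 and 13.3%), and neither passed. For chromatin against nucleoplasm, 0 of 45 passed (0%). miR-99a and miR-99b passed in none of the 4 contrasts.

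Last, the share of miR-125b-1-3p among both 3p arms was taken up after its values had been seen, and does not make up for the fraction tests that did not pass. It was 60.1%, 65.7% and 66.4% in mNPC chromatin, against 65.3%, 60.8% and 63.9% in its nucleoplasm and 80.5%, 78.5% and 79.3% in its cytoplasm. In mCtx it was 46.8%, 37.5% and 41.3%, then 68.4%, 65.0% and 62.4%, and 73.5%, 77.6% and 74.8%. Chromatin differed by -24.4 points and nucleoplasm by -13.1 points from cytoplasm (exact permutation test, both adjusted p = 0.01 over 4 tests, lower in 2 of 2 cell types). The unadjusted p of both, 0.005, is the smallest that this design can give. Chromatin against nucleoplasm did not pass (-11.3 points, adjusted p = 0.07), and mCtx differed by -8.13 points from mNPC (adjusted p = 0.0337, lower in 2 of 3 fractions).

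The 5p arms in mCtx varied together between libraries of a group. All 6 of their entries were lowest in nucleoplasm replicate 3 and in cytoplasm replicate 1, and highest in chromatin replicate 1, nucleoplasm replicate 1 and cytoplasm replicate 2. The 2 entries of miR-125b-5p are the same sequence, so these are 5 sequences. The median ratio of highest to lowest library was 2.00 in chromatin, 2.34 in nucleoplasm and 3.32 in cytoplasm, beside 1.36, 1.35 and 1.76 over all miRNA entries with a value in each library. For miR-100-5p the ratio in nucleoplasm was 11.9, the widest of 291 miRNA entries there. The 3p arms of the family did not share this: their median ratios were 1.35, 1.13 and 1.43, and no library was lowest for all of them. The pattern was not particular to the family. mir-128 was also lowest in nucleoplasm replicate 3 and cytoplasm replicate 1, and highest in chromatin and nucleoplasm replicate 1. In cytoplasm it had 11808, 28140 and 29169 RPM. Others went the opposite way there: mir-9, let-7c and let-7i were highest in cytoplasm replicate 1. The cause was not tested.

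**Figure D5:**
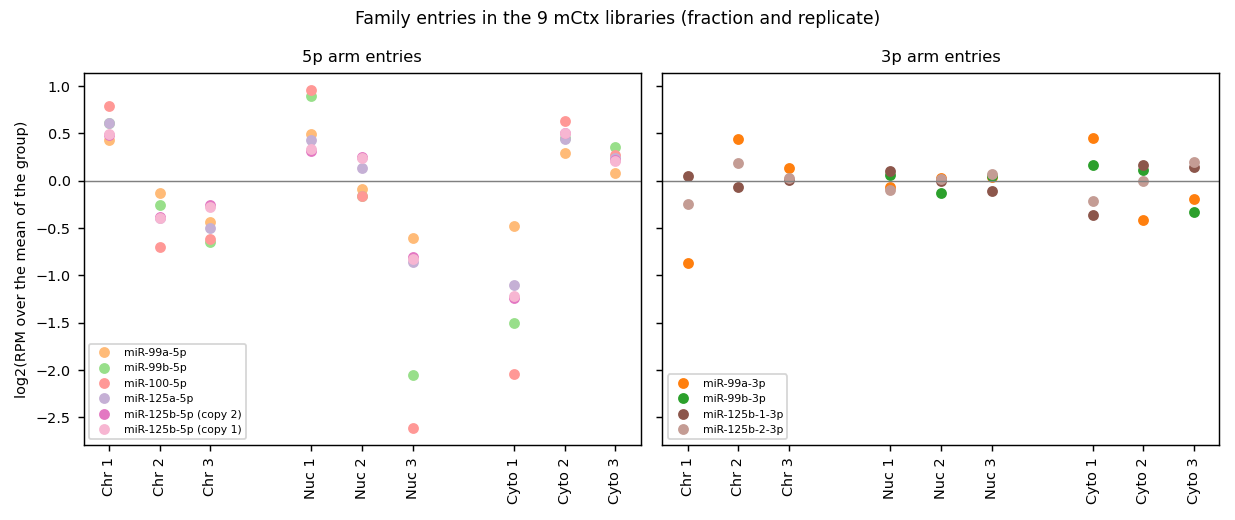
Each family entry in the 9 mCtx libraries as log2 of its RPM over the mean of its group, 5p arms left and 3p arms right; replicates have no order. The 5p entries lie lowest together in nucleoplasm replicate 3 and cytoplasm replicate 1, and the 3p entries do not.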

How the data were processed

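Small RNA of 9 groups, 3 libraries each, was read from the authors' deposited table, whose values are RPM per the file headers. Aligner, counting rule and build: not given in the sources used here. In the mNPC libraries, with the lowest value taken as 10 reads, the copies of miR-125b-5p came to whole reads or whole reads divided by 2 (within 0.02) and their sums to whole reads, but in mCtx the sums did so in 1 of 9 libraries. Copies are one sequence and were summed. No count was used in a test and the depth is not given, so no counting interval is printed.

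After a filter (3 or more libraries at 1 RPM or higher), entries were fitted in R 4.3.3 with limma 3.58.1 (trend, robust) on log2(RPM + 1), 1 mean per group, without a replicate block, adjusted by Benjamini-Hochberg within each contrast. A fold on this scale understates the change between low values above 0, and can overstate it against a 0. A second fit summed the arms and copies of each miRNA. Arm shares were tested in Python 3.11.15 by exact permutation within strata. Both were tested on simulated data. Alternatives were another pseudocount, filter, scale, a raised floor, a replicate block, libraries left out and others added after seeing the data. Centring took the median of each library over the tested entries, zeros included, so it depends on how many entries are listed.

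The members and lists were chosen with earlier results of these data known. All members are named; beyond them, the 5 miRNAs with the highest r to miR-99a and to miR-125b, and the let-7 and Hox neighbours.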

Additional observations from a re-analysis of the deposited data

Results flagged for a closer look

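For 3 entries the difference between chromatin and cytoplasm itself differed between cell types by an interaction term in limma, with a value above 0 in at least 1 library of each of the 4 groups. For miR-125b-2-3p, chromatin minus cytoplasm was 1.43 higher in mCtx than in mNPC on the log2 scale (adjusted p = 0.0109). For miR-99a-3p the same term was 6.21 (adjusted p = 0.00812), with 2 of 3 mNPC chromatin libraries at 0, and 2.02 with values raised to the highest floor (0.000706). For miR-125a-5p it was 7.08 for mCtx against mNPC (adjusted p = 0.0422) and -6.81 for mNPC against mESC (adjusted p = 0.0301), where 2 mNPC chromatin libraries are listed at 0. With values raised to the highest floor both miR-125a-5p terms lost the call (3.14, 0.0634, and -2.87, 0.0596). They were also lost without any of 21 and any of 7 of the 27 libraries, taken out in turn. In all, 3 of 12 entries were called higher in the first contrast (6.11% of all entries). With libraries centred on their median, zeros included, none of these 4 terms passed.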

How the results depend on the processing

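Counts here are calls on family entries over the 3 contrasts of a kind, in either direction. For single entries, 27 were called for mCtx against mESC and 24 for mNPC against mESC, within 1.5 times of that under every setting run. In chromatin and cytoplasm, all these calls for mCtx, and those higher for mNPC, have a group listed at 0 throughout. Such zeros largely fix the outcome, so the steady counts say little about robustness. For mCtx against mNPC 7 were called, which became 14 with libraries centred on their median, 15 with log2(RPM + 10), 13 with only the 6 libraries compared and 14 with values raised to the highest floor. Chromatin against cytoplasm had 11 calls, 21 when centred and 6 when scaled to miRNA values. Chromatin against nucleoplasm had 7, then 3 and 4 under the same 2 scales. Nucleoplasm against cytoplasm had 1, then 5 when centred, 3 with log2(RPM + 10), 3 without a filter, 5 with 6 libraries and 4 with the raised floor. The interaction calls went from 10 to 2 when centred (chromatin and cytoplasm), and from 1 to 0 when centred, 2 with log2(RPM + 10), 3 without a filter and 5 with the raised floor (nucleoplasm and cytoplasm).

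For summed miRNAs, mCtx against mNPC had 4 calls (7 centred). Chromatin against cytoplasm had 5 (9 centred, 3 scaled to miRNA values, 3 with at least 10 RPM in 9 libraries). Chromatin against nucleoplasm had 4 (2 under each of those 3 settings), nucleoplasm against cytoplasm 0 (2 with 6 libraries), and the chromatin interactions 5 (0 centred, 3 scaled to miRNA values, 3 with the stricter filter, 8 with the raised floor). Arm shares over 27 libraries had 1 call, 0 with the replicate block and 12 with the raised floor, under which the miR-99b share turned to 5.10 points (adjusted p = 0.315). Over 18 libraries they had 1, then 2 with log2 ratios and 4 with the raised floor. The raised floor sets arms listed at 0 to equal values and brings in members that the main arm tests left out. Its arm share counts therefore cannot be set against those of the main tests. Centring turned the miR-125b-5p (chr 9) difference between mCtx and mNPC in cytoplasm to -0.65. The median used includes zeros, so all centred values and counts depend on how many entries each library lists. As a percent of all listed values the family was 0.0720% in mESC chromatin and 0.950% in mNPC chromatin. The cause of these changes was not tested.

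With 1 library left out, single-entry calls ranged from 6 to 16 (mCtx against mNPC; 6 without mCtx nucleoplasm replicate 2, 16 without mESC nucleoplasm replicate 1), 9 to 13 (chromatin against cytoplasm), 5 to 11 (chromatin against nucleoplasm) and 0 to 6 (nucleoplasm against cytoplasm), and interactions from 7 to 11 and 0 to 3. Summed calls ranged from 4 to 7, 4 to 7, 3 to 6 and 0 to 1, and interactions from 3 to 6. Arm share calls ranged from 0 to 2 and from 1 to 2, while the family's share lay between 0.230% and 0.314% for the mESC groups, between 1.46% and 2.55% for mNPC and between 2.24% and 6.67% for mCtx.

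The labels number the replicates alike in all groups. Of 108 pairs of libraries with the same number, 48 correlated above 0.1 in their deviations (median r = 0.0578), against 71 of 216 pairs with different numbers (median r = -0.0372). Of the 27 libraries, 12 correlated best with their own number. These pairs pool fractions of one cell type with libraries of different cell types, so the check cannot exclude that fractions were paired. The main fit did not take the numbers to pair libraries. The replicate block gave 27, 8 and 24 calls between cell types, 11, 8 and 1 between fractions and 10 and 1 for the interactions. Of the single values named, 236 were on the same side of the threshold in other settings, 45 lost and 13 gained a call, and 2 turned sign. Values near the lowest listed RPM limit what can be said of 3p arms other than those of miR-125b. The share of miR-125b-1-3p among 3p arms differed by -25.6 to -23.3 points between chromatin and cytoplasm with 1 library left out.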
